A study of Mus musculus with 6 samples.

Results

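The 46 genes described here carry cells from G2 into mitosis and through division, and they were taken by symbol from a table of 24421 gene rows. Each of the 46 symbols was found once. They fall by role into 7 groups: mitotic cyclins with Cdk1 and its phosphatases (6 genes), mitotic kinases with the chromosomal passenger complex (6), kinetochore and spindle checkpoint genes (10), spindle motors and microtubule regulators (8), condensin and chromosome structure genes (6), genes of the anaphase-promoting complex pathway (5) and cytokinesis genes (5). Expression was measured by RNA sequencing in 3 mouse pancreatic ductal adenocarcinoma cell lines named 6499c4, 6419c5 and 2838c3. Each line was given 250 nM G-1, a small molecule that activates GPER (the membrane-bound oestrogen receptor), or its solvent DMSO (vehicle), and RNA was taken after 16 hours. Every line and treatment had 1 library, 6 in all, and the labels give passages 15 to 20 for the lines and no genotype. All controls received the solvent.

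In dividing cells, Cdk1 bound to cyclin A or cyclin B starts mitosis once CDC25 phosphatases remove its inhibitory phosphates. The spindle checkpoint holds chromosomes until kinetochores are attached, after which CDC20 and the anaphase-promoting complex mark cyclin B and securin for destruction. Messenger RNAs of this programme peak in G2 and mitosis: the DREAM complex keeps their promoters off in resting cells, and MYBL2 with FOXM1 turns them on, often through a cell cycle homology element with the core TTTGAA and through CCAAT boxes bound by NF-Y. Their summed level in a bulk culture therefore depends on how many cells are in G2 and mitosis. In bulk RNA, fewer cells in that state and less RNA in each of them cannot be told apart.

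The promoters of 5 core mitotic regulators are printed to show those elements. They run from 250 bases before to 50 bases after the annotated start, in the RefSeq annotation of build GRCm38.p6, and are written 5′ to 3′ on the gene's own strand. Capitals mark CCAAT or TTTGAA on either strand, so that ATTGG is a CCAAT box on the other strand. Cdk1 lies at chr10:69352863-69353162 on the minus strand, Ccnb1 at chr13:100786437-100786736 on the minus strand, Ccnb2 at chr9:70421505-70421804 on the minus strand, Plk1 at chr7:122159185-122159484 on the plus strand and Cdc20 at chr4:118437294-118437593 on the minus strand.
Cdk1: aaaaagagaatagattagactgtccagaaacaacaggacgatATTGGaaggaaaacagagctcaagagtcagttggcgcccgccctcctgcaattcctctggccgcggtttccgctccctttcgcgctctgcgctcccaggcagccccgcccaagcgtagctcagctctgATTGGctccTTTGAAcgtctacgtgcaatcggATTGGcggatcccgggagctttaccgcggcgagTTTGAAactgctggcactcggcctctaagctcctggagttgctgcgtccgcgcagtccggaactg
Ccnb1: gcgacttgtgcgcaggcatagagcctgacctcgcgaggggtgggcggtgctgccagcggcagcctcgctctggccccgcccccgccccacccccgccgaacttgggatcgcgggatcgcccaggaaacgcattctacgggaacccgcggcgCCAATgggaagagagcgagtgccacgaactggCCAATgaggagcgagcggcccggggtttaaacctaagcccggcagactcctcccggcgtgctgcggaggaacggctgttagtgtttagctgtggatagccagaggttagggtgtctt
Ccnb2: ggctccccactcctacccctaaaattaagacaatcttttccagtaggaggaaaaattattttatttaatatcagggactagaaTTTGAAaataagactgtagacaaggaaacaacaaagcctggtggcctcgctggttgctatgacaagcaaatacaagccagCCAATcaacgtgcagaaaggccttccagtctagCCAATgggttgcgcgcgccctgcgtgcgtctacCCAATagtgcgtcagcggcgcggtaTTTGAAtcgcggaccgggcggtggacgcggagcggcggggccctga
Plk1: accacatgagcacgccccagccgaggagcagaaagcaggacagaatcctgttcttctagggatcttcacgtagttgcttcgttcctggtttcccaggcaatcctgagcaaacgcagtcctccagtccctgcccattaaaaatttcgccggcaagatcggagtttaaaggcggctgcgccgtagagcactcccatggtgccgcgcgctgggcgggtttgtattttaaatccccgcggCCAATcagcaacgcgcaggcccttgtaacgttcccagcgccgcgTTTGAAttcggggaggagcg
Cdc20: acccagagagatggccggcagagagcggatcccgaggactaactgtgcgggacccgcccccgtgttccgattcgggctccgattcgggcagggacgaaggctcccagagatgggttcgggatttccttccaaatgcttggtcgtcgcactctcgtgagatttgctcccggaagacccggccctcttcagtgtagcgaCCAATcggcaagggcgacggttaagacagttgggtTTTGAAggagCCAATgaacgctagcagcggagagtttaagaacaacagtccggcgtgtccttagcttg
The Cdk1 window holds 3 CCAAT boxes and 2 TTTGAA matches, the Ccnb2 window 3 and 2, the Cdc20 window 2 and 1, and the Plk1 window 1 and 1. The Ccnb1 window holds 2 CCAAT boxes and no TTTGAA match. A window was given for 38 of the 46 genes. Of these 38, 29 (76.3%) held CCAAT and 29 (76.3%) held TTTGAA on either strand, and 25 (65.8%) held both. Over all 27025 genes of the promoter annotation, 41.1% held CCAAT, 20.2% held TTTGAA and 8.97% held both. Over the 8237 tested genes with a window, these shares were 43.2%, 13.7% and 6.86%. The 5 condensin and chromosome structure genes with a window (Ncapg, Ncapd2, Smc2, Top2a and Mki67) all held both motifs. A match of letters is a description and no evidence of binding.

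Reads in genes numbered 5455990 to 8645057 in G-1 libraries and 7213624 to 8890821 in vehicle libraries, and the library with the lowest number was G-1 of 6419c5. The level used is FPKM, which is scaled per length of gene and by the authors' library scale, so levels may be set beside each other across genes. All 46 genes passed the filter of a mean of at least 1 FPKM, as did 10748 genes in all. They were deeply covered, with 82 to 7433 reads per gene and library and a median of 1109 mean reads, against 318 for the genes tested. The 6 epithelial markers Krt8, Krt18, Krt19, Krt7, Epcam and Cdh1 were all present, with sums of 5399 and 5430 FPKM (G-1 and vehicle) in 6499c4, 5844 and 5959 in 6419c5 and 3427 and 3416 in 2838c3. Fibroblast markers summed to at most 1.11 FPKM, with Col1a2, Dcn and Lum at 0 in all libraries, and endothelial markers to at most 1.82 FPKM. Leukocyte markers summed to at most 3.38 FPKM, with Adgre1 at 0, and acinar markers to at most 7.74 FPKM, with Cpa1 and Pnlip at 0.

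Transcripts of the mitotic programme were abundant in every library. Averaged over the 6 libraries, the ubiquitin-conjugating enzyme gene Ube2c had the highest level at 185 FPKM, followed by Top2a (DNA topoisomerase II) at 150 FPKM and the cyclin gene Ccna2 at 139 FPKM. The securin gene Pttg1 was lowest at 7.87 FPKM, below the kinesin gene Kif15 at 10.8 FPKM. Summed over the 46 genes, the level was 2201 and 2352 FPKM (G-1 and vehicle) in 6499c4, 2713 and 2609 FPKM in 6419c5 and 3248 and 3230 FPKM in 2838c3. These genes took 0.760% and 0.826% of the reads in 6499c4, 0.898% and 0.861% in 6419c5, and 1.07% in both libraries of 2838c3. The lines were thus in the same order under both treatments.

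**Figure D1:**
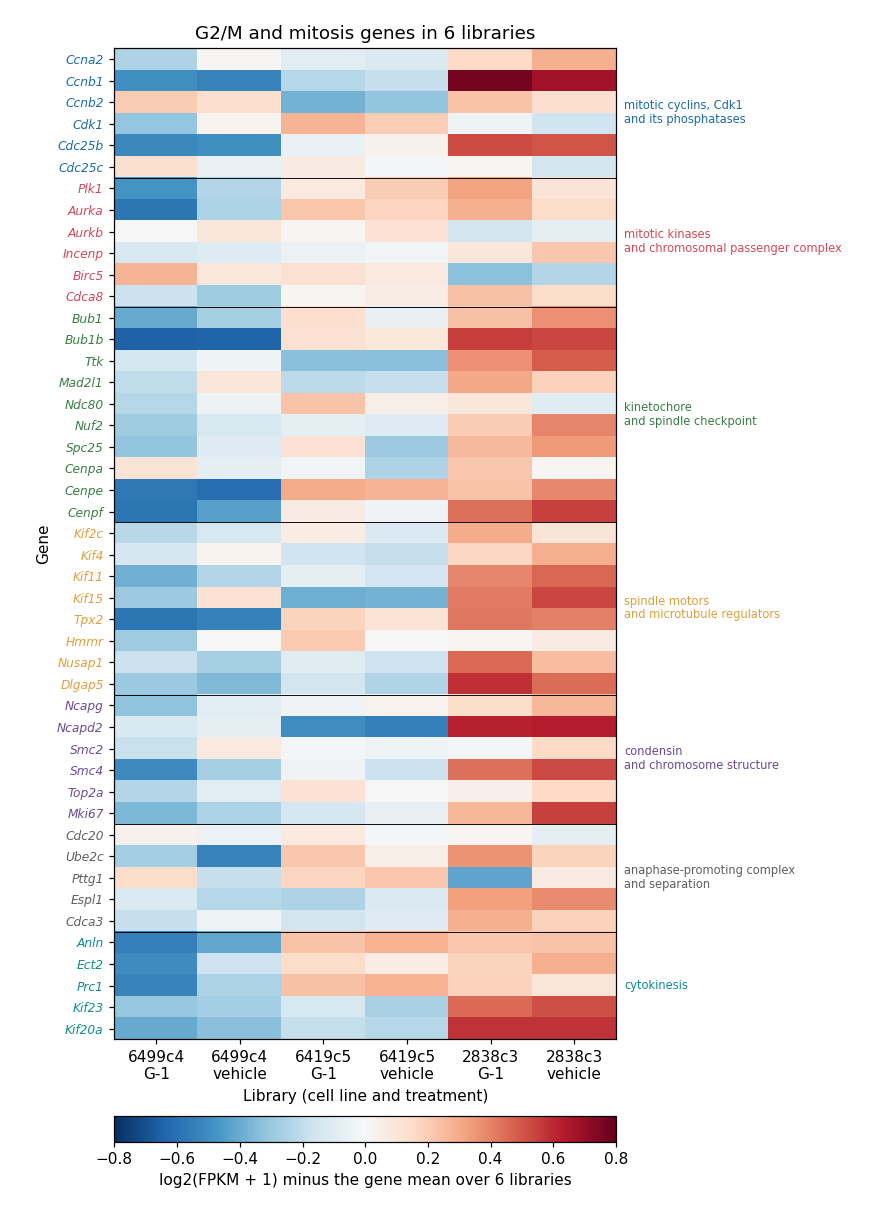
Level of the 46 genes (rows, grouped and coloured by role) in the 6 libraries (columns), as log2(FPKM + 1) minus the mean of the gene over the libraries. Both columns of 2838c3 are mostly red (higher than the mean) and both columns of 6499c4 mostly blue (lower), under G-1 as under vehicle.

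The first comparison asks what G-1 did to these genes. No gene of the 46 passed the test: 0 were higher and 0 lower at an adjusted p under 0.05 by limma with line as block, where 0.0279% of all genes tested were called (3 of 10748; 0.00930% higher and 0.0186% lower). By unadjusted p under 0.05 there were 2 of 46 (Ube2c and Cenpa), against 10.1% of all genes tested. The median log2 difference over the 46 genes was -0.04, against -0.01 over all genes tested, and it ranged from -0.18 (Kif15) to 0.20 (Ube2c and Cenpa). Fitted 95% intervals had a median half-width of 0.17 on the log2 scale and reached from -0.43 (lower bound of Pttg1) to 0.33 (upper bound of Cenpa). Limma-voom on whole reads recovered from the FPKM values also called 0 of the 46, with 6 at an unadjusted p under 0.05. It called 1.54% of all genes tested, and 14.3% had an unadjusted p under 0.05.

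Ube2c, whose product adds ubiquitin for the anaphase-promoting complex, and Cenpa, the histone variant that marks centromeres, had the largest values. Ube2c had 150 and 125 FPKM (G-1 and vehicle) in 6499c4, 211 and 187 FPKM in 6419c5 and 233 and 205 FPKM in 2838c3. Cenpa had 72.7 and 64.0 FPKM in 6499c4, 66.3 and 56.6 FPKM in 6419c5 and 78.2 and 68.2 FPKM in 2838c3. Both were higher with G-1 in every line, and for each gene the values of the G-1 and vehicle groups overlapped across lines. The mean log2 difference of Ube2c was 0.20 ± 0.05 (SE; limma, adjusted p = 0.349) and that of Cenpa 0.20 ± 0.06 (SE; adjusted p = 0.363). Read ratios of G-1 to vehicle, with exact 95% counting intervals, were 1.20 (1.10 to 1.30), 1.13 (1.04 to 1.22) and 1.14 (1.06 to 1.22) for Ube2c in 6499c4, 6419c5 and 2838c3. For Cenpa they were 1.14 (1.04 to 1.25), 1.17 (1.05 to 1.31) and 1.15 (1.05 to 1.25). Of the 46 genes, these 2 alone had intervals above 1 in all 3 lines, and 0 had intervals below 1 in all 3. The share of all genes tested with such intervals in all 3 lines was not counted.

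Taking signs alone, 6 of 46 genes were higher with G-1 in all 3 lines, against 15.4% of all genes tested. Beside Ube2c and Cenpa these were Cdc25c, a phosphatase that activates Cdk1, the microtubule-binding genes Nusap1 and Dlgap5, and Cdc20, the activator of the anaphase-promoting complex. Cdc20 had 96.2 and 90.7 FPKM (G-1 and vehicle) in 6499c4, 99.4 and 93.4 FPKM in 6419c5 and 95.1 and 89.1 FPKM in 2838c3, so that all G-1 values lay above all vehicle values. Its mean difference was small, at 0.09 ± 0.05 (SE; limma, adjusted p = 0.610). Another 7 of 46 were lower in all 3 lines, against 17.5% of all genes tested: Kif15, Mki67, Ncapg, Aurkb, Ttk, Anln and Incenp. Mki67, the Ki-67 antigen of cycling cells, had 32.4 and 34.9 FPKM (G-1 and vehicle) in 6499c4, 38.0 and 40.0 FPKM in 6419c5 and 50.6 and 61.6 FPKM in 2838c3. Its difference was -0.15 ± 0.07 (SE; limma, adjusted p = 0.515), with a 95% interval from -0.31 to 0.01. The mean differences of the rest of these genes were 0.15 for Cdc25c, 0.13 for Nusap1, 0.09 for Dlgap5, -0.18 for Kif15, -0.14 for Ncapg, -0.09 for Aurkb, -0.08 for Ttk and -0.06 for both Anln and Incenp, with adjusted p = 0.547 to 0.776 by limma. The other 33 genes had mixed signs.

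The line values behind these means pointed in different directions. In 6499c4, 33 of 46 genes were lower with G-1 and the median was -0.10; in 6419c5, 29 of 46 were higher and the median was 0.04; in 2838c3, 25 were lower and 21 higher, with a median of -0.03. Over all genes tested the medians were 0.00, -0.00 and -0.01. Signs were counted over the 10368 genes tested with a known GC content and length. Of these, 5175 were lower and 5141 higher in 6499c4, 5283 lower and 5049 higher in 6419c5, and 5466 lower and 4804 higher in 2838c3. Of the 46 genes, 21 were higher in 6419c5 and lower in 6499c4, while 5 went the opposite way. The median over the 46 genes was 0.02 when 6499c4 was left out, the reverse of its sign with all lines.

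Counting intervals of the read ratios show the same pattern gene by gene. In 6499c4, 22 of 46 genes had an interval below 1 and 3 above 1, against 17.7% below and 17.9% above among all genes tested. In 6419c5, 0 had an interval below 1 and 10 above 1, against 8.76% and 7.77%. In 2838c3, 13 lay below and 12 above, against 18.2% and 12.6%. Genes with many reads have narrow intervals, so the same count was taken over genes with at least 799 mean reads, the lower quartile of the 46. Of the 34 members left, 18 lay below 1 in 6499c4 (52.9%) and 3 above, where 31.6% and 20.3% of equally deep genes did. In 6419c5, 0 lay below 1 and 8 above, where 17.1% and 11.1% of such genes did. In 2838c3, 11 lay below 1 and 9 above, where 38.7% and 15.9% did. These intervals cover counting error only: with 1 library per line and treatment, the spread between cultures of a line is unknown.

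In 12 of the 46 genes (26.1%) the interval lay above 1 in one line and below 1 in another, against 5.64% of all genes tested. Over genes with at least 799 mean reads this was 10 of 34 (29.4%), against 10.9%. All 12 were below 1 in 6499c4. Above 1 were Cdk1, Plk1, Aurka, Mad2l1, Ndc80 and Prc1 in 2838c3, and Bub1, Ndc80, Spc25, Hmmr, Smc4, Top2a and Ect2 in 6419c5.

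**Figure D2:**
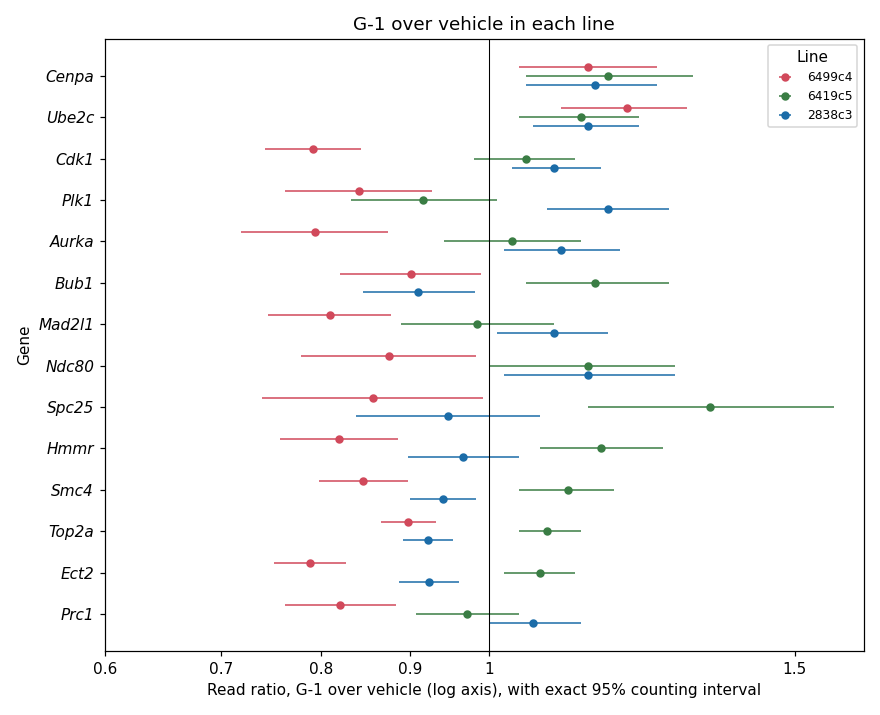
Read ratio of G-1 over vehicle (log axis) with its exact 95% counting interval in each line, for the 2 genes with intervals above 1 in every line and the 12 genes with intervals on opposite sides of 1. Ratios of the 12 genes in 6499c4 run from 0.788 (Ect2) to 0.901 (Bub1), all left of 1.

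Among the cyclins and Cdk1, Cdk1 itself had the widest spread between lines. Cdk1, the kinase that drives entry into mitosis, had 70.8 and 89.6 FPKM (G-1 and vehicle) in 6499c4, 106 and 101 FPKM in 6419c5 and 85.9 and 78.5 FPKM in 2838c3. The read ratio was 0.791 (0.742 to 0.843) in 6499c4, 1.05 (0.980 to 1.12) in 6419c5 and 1.09 (1.03 to 1.16) in 2838c3. Its mean difference over lines was -0.05 ± 0.09 (SE; limma, adjusted p = 0.890), with a 95% interval from -0.27 to 0.17. Its partner Ccnb1, cyclin B1, had 44.2 and 42.7 FPKM (G-1 and vehicle) in 6499c4, 53.1 and 54.8 FPKM in 6419c5, and 107 and 99.9 FPKM in 2838c3, with a mean of 0.04 ± 0.06 (SE; limma, adjusted p = 0.872). Ccna2, cyclin A2, had a ratio of 0.837 (0.795 to 0.880) in 6499c4, 1.02 (0.962 to 1.08) in 6419c5 and 0.912 (0.872 to 0.954) in 2838c3.

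Plk1 and Aurka, the kinases that mature centrosomes and build the spindle poles, followed Cdk1 in 6499c4 and 2838c3. Plk1 had 40.9 and 48.6 FPKM (G-1 and vehicle) in 6499c4, 60.6 and 66.1 FPKM in 6419c5 and 72.0 and 61.5 FPKM in 2838c3, lower with G-1 in 6499c4 and 6419c5 and higher in 2838c3. Aurka had 44.6 and 56.2 FPKM in 6499c4, 78.3 and 75.8 FPKM in 6419c5 and 82.1 and 74.3 FPKM in 2838c3, lower with G-1 in 6499c4 only. Their ratios in 6499c4 were 0.841 (0.762 to 0.926) and 0.793 (0.719 to 0.874). Over the lines both genes had a mean of -0.05 ± 0.09 (SE), with adjusted p = 0.888 for Plk1 and 0.890 for Aurka by limma. Without 6499c4 the mean of Cdk1 was 0.10, that of Aurka 0.09 and that of Plk1 0.05.

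Kinetochore and condensin genes were lower with G-1 in 6499c4 as groups, with medians of -0.15 over 10 kinetochore genes and -0.19 over 6 condensin and chromosome structure genes, against 0.00 over all genes tested. In 2838c3 these medians were -0.09 and -0.12, and in 6419c5 0.07 and 0.04. After the correction for GC content and length described further on, they were -0.06 and -0.10 in 6499c4, 0.07 and 0.04 in 6419c5, and -0.02 and -0.03 in 2838c3. Spc25, a subunit of the NDC80 complex that grips microtubules, had 21.7 and 25.3 FPKM (G-1 and vehicle) in 6499c4, 29.7 and 22.1 FPKM in 6419c5 and 32.9 and 34.8 FPKM in 2838c3, with the highest ratio of the 46 genes in 6419c5 at 1.34 (1.14 to 1.58). Top2a, which untangles sister chromatids, had 127 and 141 FPKM in 6499c4, 162 and 150 FPKM in 6419c5 and 154 and 167 FPKM in 2838c3. All 6 condensin and chromosome structure genes were lower with G-1 in both 6499c4 and 2838c3, with Ncapd2 nearest to 0 at -0.05 and -0.01. None of these groups held a gene past the test over the 3 lines. Cytokinesis genes were lower with G-1 in 6499c4 too, with a median of -0.13 (-0.07 after that correction) and the largest difference in Ect2, which activates RhoA at the cleavage furrow. Ect2 had 83.6 and 106 FPKM (G-1 and vehicle) in 6499c4, 132 and 124 FPKM in 6419c5 and 135 and 146 FPKM in 2838c3.

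The anaphase-promoting complex group had a median of 0.10 in 6499c4, -0.04 in 6419c5 and 0.09 in 2838c3. After the correction for GC content and length, these medians were 0.09, -0.04 and -0.01. Pttg1, the inhibitor of separase, was the least covered gene and had 8.68 and 6.72 FPKM (G-1 and vehicle) in 6499c4, 8.88 and 9.18 FPKM in 6419c5 and 5.53 and 8.20 FPKM in 2838c3. Its ratio in 2838c3 was 0.674 (0.503 to 0.899), the lowest of any of the 46 genes in any line. Kif15, a spindle kinesin, had the lowest ratio in 6499c4 at 0.733 (0.635 to 0.844).

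Base composition moved with the G-1 difference. Across the 46 genes, Spearman's rho between the GC content of the longest transcript and the G-1 difference was 0.46 in 6499c4, -0.27 in 6419c5 and 0.40 in 2838c3, and across 10368 genes tested it was 0.30, -0.09 and 0.29. The 46 genes share the libraries they are measured in, and their median GC content was 46.2%, against 49.6% over those genes. After a spline correction for GC content and length within each library, the medians over the 46 genes were -0.06 in 6499c4 (34 lower), 0.03 in 6419c5 (29 higher) and 0.01 in 2838c3 (24 higher). Each of the 12 genes with intervals on opposite sides of 1 kept its signs in those lines after the correction, but their median in 6499c4 was -0.19 after it and -0.26 before it. Several came nearer to 0 in 6499c4: Bub1 was at -0.06 after and -0.14 before the correction, Top2a at -0.06 and -0.15, and Ndc80 at -0.09 and -0.19. Of the 6 genes that were higher with G-1 in all 3 lines, 5 stayed so, and Cdc20 was at -0.03 in 6499c4, 0.10 in 6419c5 and -0.01 in 2838c3. Of the 7 that were lower in all 3, 5 stayed so; Anln was at 0.07 in 2838c3 and Incenp at 0.00 in 6419c5. What part GC content has in the differences between lines was not tested further.

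**Figure D3:**
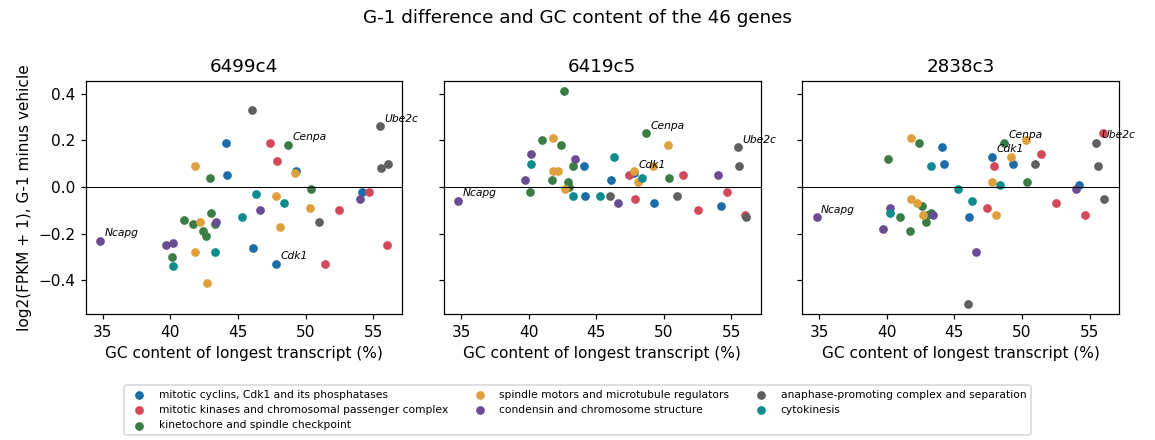
G-1 minus vehicle on the log2(FPKM + 1) scale (vertical) against the GC content of the longest transcript in percent (horizontal), for the 46 genes in each line, coloured by role. Ncapg, the member with the lowest GC content, lies below 0 in all 3 lines and Ube2c above 0 in all 3, with a rho of 0.46 in 6499c4 and -0.27 in 6419c5.

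The second comparison sets the lines against each other, with treatment as covariate and 2 libraries per line. Most mitotic genes were lowest in 6499c4 and highest in 2838c3. Against 2838c3, 35 of the 46 genes were lower in 6499c4 and 1 was higher (limma, adjusted p under 0.05), where 28.9% of all genes tested were lower and 26.6% higher (55.6% called either way). Their median log2 difference was -0.52, which is 0.699 of the level in 2838c3, and the median over all genes tested was -0.01. Between 6419c5 and 2838c3, 23 of the 46 were lower in 6419c5 and 2 higher, with a median of -0.27, where 25.3% of all genes were lower and 26.2% higher (51.5% either way) with a median of 0.00. Between 6499c4 and 6419c5, 16 were lower in 6499c4 and 2 higher, with a median of -0.18, where 23.7% of all genes were lower and 21.3% higher (45.0% either way) with a median of 0.01. Scaling by total reads shifted the median of all genes by 0.12 and 0.10 in the comparisons that involve 6499c4 with 2838c3 and with 6419c5. Relative to that shift the 46 genes stood at -0.50 and -0.17.

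In 2838c3, 28 of the 46 genes had both libraries above the other 4, against 26.0% of all genes tested. Both libraries of 6499c4 lay below the other 4 for 26 of the 46, against 23.1%, and above them for 0, against 21.9%. Both libraries of 6419c5 lay above the other 4 for 4 genes (Cdk1, Pttg1, Anln and Prc1), against 19.6%, and below them for 5, against 18.5%. For Aurkb and Birc5 both libraries of 2838c3 lay below the other 4, against 24.2% of all genes. The mean of a line was highest in 2838c3 for 36 genes and lowest in 6499c4 for 32. Against 2838c3, 21 genes were called lower in both other lines, where 16.1% of all genes tested were, and 15 were called lower in 6499c4 than in either other line, where 13.9% were. Comparisons of lines share libraries (those of 2838c3 in the first case and of 6499c4 in the second), so these calls are not independent of each other. Lower calls among the 46 genes were fewer without some single libraries, which leaves a line with 1 library. Calls over all genes tested fell there too. Without the vehicle library of 6419c5, the median of the 46 genes in 6419c5 against 2838c3 was -0.22. In 6499c4 against 6419c5 it was -0.11 without the G-1 library of 6419c5 and -0.11 without that of 6499c4. 7 genes were called in no pair of lines, where 24.6% of all genes tested were not: Cdc20, Cdc25c, Pttg1, Smc2, Ndc80, Hmmr and Aurkb. Of these, Aurkb was called higher in 6499c4 than in 2838c3 under quantile and total-read scaling (0.24 and 0.29; limma, adjusted p = 0.0306 and 0.0127), and Cdc20 lower there once corrected for GC content and length (-0.20; adjusted p = 0.0330). Ndc80 and Hmmr were called lower in 6499c4 than in 6419c5 by limma-voom (-0.27 and -0.24; adjusted p = 0.0315 and 0.0298) and without the vehicle library of 6499c4 (-0.46 and -0.42; 0.0154 and 0.0320). Pttg1 was called higher in 6419c5 than in 2838c3 without the vehicle library of 2838c3 (0.69; adjusted p = 0.0253).

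**Figure D4:**
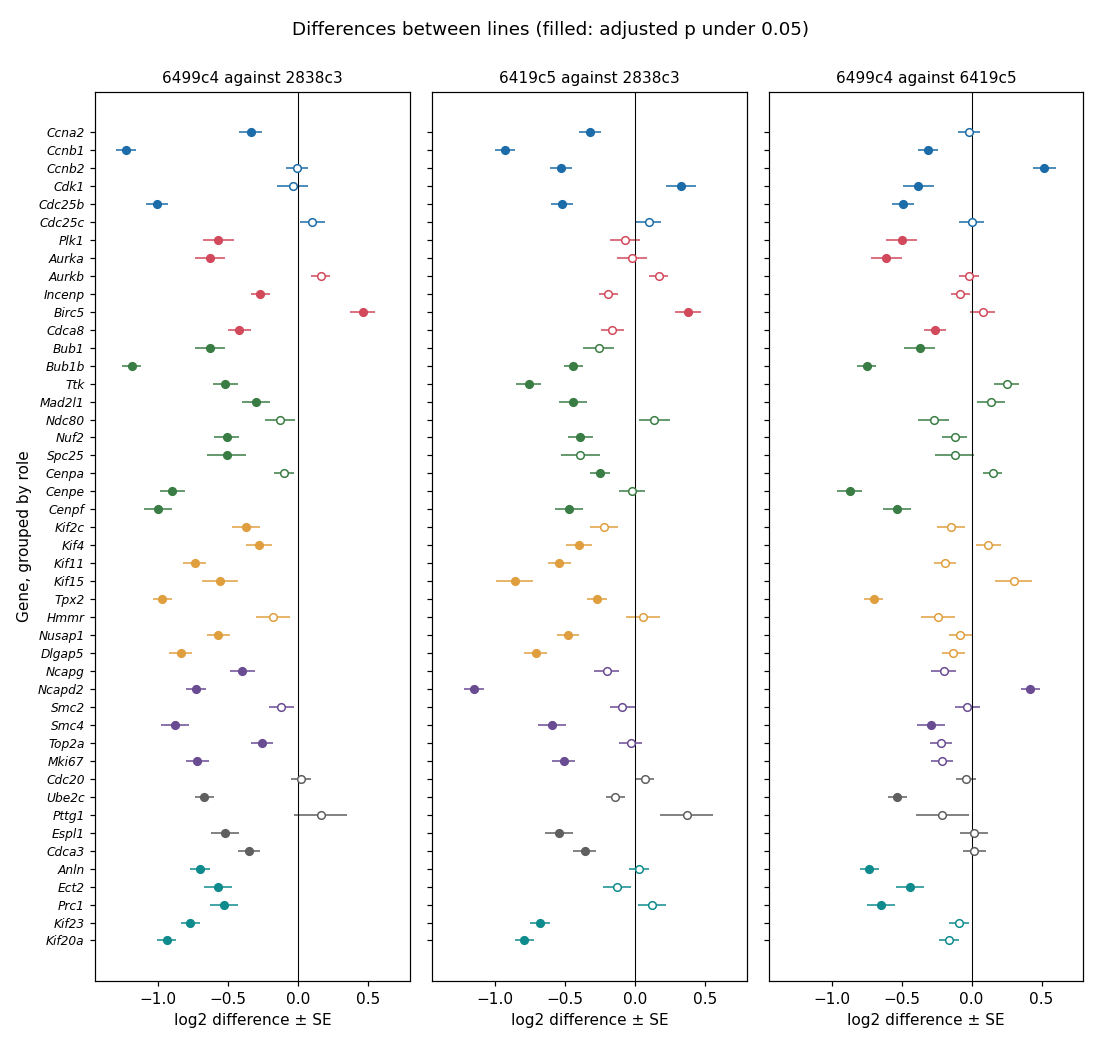
Log2 difference ± SE between lines (horizontal) for the 46 genes (vertical, in the order and colours of their role groups), by limma, with filled points at an adjusted p under 0.05. Of the 46 points, 35 lie filled and left of 0 for 6499c4 against 2838c3, 23 for 6419c5 against 2838c3 and 16 for 6499c4 against 6419c5.

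The cyclin genes differed in their order of lines. Ccnb1 had the largest difference of all 46: its mean level was 43.5 FPKM in 6499c4, 54.0 FPKM in 6419c5 and 104 FPKM in 2838c3. Both libraries of 2838c3 were far above the other 4. The differences from 2838c3 were -1.23 ± 0.07 in 6499c4 (SE; limma, adjusted p = 1.67e-05) and -0.93 ± 0.07 in 6419c5 (adjusted p = 8.76e-05). Ccnb2, cyclin B2, behaved otherwise, with 81.2 and 77.2 FPKM (G-1 and vehicle) in 6499c4, 53.8 and 56.3 FPKM in 6419c5 and 82.6 and 77.2 FPKM in 2838c3. It was lowest in 6419c5, 0.52 ± 0.08 higher in 6499c4 than there (SE; limma, adjusted p = 0.00136). Cdc25b, a phosphatase that activates Cdk1, fell by 1.01 in 6499c4 and by 0.52 in 6419c5 relative to 2838c3 (adjusted p = 5.02e-05 and 0.00130), and Cdc25c was called in no pair. Cdk1 was the one gene called higher in 6419c5 than in both other lines, by 0.33 ± 0.11 over 2838c3 (SE; limma, adjusted p = 0.0428). That call was lost in several alternatives, with an adjusted p between 0.0501 and 0.109 where all libraries were kept. It was also lost without the vehicle library of 2838c3, the G-1 library of 6419c5 or its vehicle library (0.296, 0.282 and 0.111). The difference from 6419c5 in 6499c4, -0.38 ± 0.11 (SE; limma, adjusted p = 0.0311), was lost under 5 settings that kept all libraries (0.0757 to 0.103) and without the G-1 or vehicle library of 6419c5 or the G-1 library of 6499c4 (0.246, 0.0949 and 0.233).

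Kinases of the spindle poles were lower in 6499c4, and neither was called between 6419c5 and 2838c3. Plk1 was at -0.57 ± 0.11 in 6499c4 against 2838c3 (SE; limma, adjusted p = 0.00429) and at -0.07 ± 0.11 in 6419c5 against 2838c3 (adjusted p = 0.629). For Aurka the corresponding values were -0.63 ± 0.11 (adjusted p = 0.00267) and -0.02 ± 0.11 (adjusted p = 0.901). Of the chromosomal passenger complex, which corrects faulty attachments, the scaffold Incenp and the subunit Cdca8 were lower in 6499c4 than in 2838c3, at -0.27 and -0.42 (adjusted p = 0.0167 and 0.00287). The Incenp call was lost under 4 settings that kept all libraries (adjusted p = 0.0527 to 0.137), and without the vehicle library of 2838c3 or either library of 6499c4 (0.0502 to 0.149). The kinase of that complex, Aurkb, was at 0.16 (adjusted p = 0.105). Its subunit Birc5, survivin, went the opposite way to most of the 46 genes, with 39.0 and 34.1 FPKM (G-1 and vehicle) in 6499c4, 35.1 and 34.0 FPKM in 6419c5 and 25.4 and 27.2 FPKM in 2838c3. All 4 libraries of 6499c4 and 6419c5 were above both of 2838c3, by 0.46 ± 0.09 (SE; limma, adjusted p = 0.00439) and 0.38 ± 0.09 (adjusted p = 0.0114). Without the G-1 library of 2838c3 these became 0.35 (adjusted p = 0.0505) and 0.28 (adjusted p = 0.115), and the call for 6419c5 was also lost without either of its own libraries (0.0795 and 0.0816).

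Of 10 kinetochore and checkpoint genes, 8 were lower in 6499c4 than in 2838c3 and 6 were lower in 6419c5 than in 2838c3. The group medians were -0.51 and -0.39. Over all genes tested, 28.9% were called lower in 6499c4 and 25.3% in 6419c5. Bub1b, the checkpoint protein BubR1, had 32.8 and 33.0 FPKM (G-1 and vehicle) in 6499c4, 56.7 and 55.1 FPKM in 6419c5 and 76.9 and 75.7 FPKM in 2838c3, in 3 separate steps. It fell by 1.19 in 6499c4 (adjusted p = 1.65e-05) and by 0.44 in 6419c5 (adjusted p = 0.00185) relative to 2838c3. Cenpe, a kinesin that brings chromosomes to the spindle equator, was low in 6499c4 alone, with 18 and 17.5 FPKM (G-1 and vehicle) there, 33.6 and 33.0 FPKM in 6419c5 and 32.1 and 35.8 FPKM in 2838c3. Its differences were -0.90 ± 0.09 from 2838c3 (SE; limma, adjusted p = 1.51e-04) and -0.87 ± 0.09 from 6419c5 (adjusted p = 2.58e-04). Ttk, the kinase that starts checkpoint signalling, was lower than 2838c3 in both, at -0.52 in 6499c4 and -0.76 in 6419c5 (adjusted p = 0.00256 and 5.03e-04). Ndc80 was called in no pair, and Cenpa was called in 6419c5 against 2838c3, at -0.25 (adjusted p = 0.0190), a call lost without any 1 of the 4 libraries of these lines (adjusted p = 0.0725 to 0.110) and with no variance trend (0.0632). Under quantile scaling, total-read scaling and the GC and length correction, Cenpa was also called higher in 6499c4 than in 6419c5, at 0.23, 0.26 and 0.24 (limma, adjusted p = 0.0314, 0.0187 and 0.0161).

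Spindle motors and microtubule regulators were lower in 6499c4 than in 2838c3 for 7 of 8 genes and in 6419c5 for 6 of 8, with medians of -0.57 and -0.44. Those shares were 87.5% and 75.0%, against 28.9% and 25.3% of all genes tested. Tpx2, which activates Aurka at the spindle, had 41.7 and 42.8 FPKM (G-1 and vehicle) in 6499c4, 71.1 and 67.8 FPKM in 6419c5 and 84.5 and 83.2 FPKM in 2838c3. It fell by 0.97 in 6499c4 (limma, adjusted p = 4.18e-05) and by 0.27 in 6419c5 (adjusted p = 0.0165) relative to 2838c3. The call for 6419c5 was lost without any 1 library of those lines (adjusted p = 0.0566 to 0.112) and with no variance trend (0.0554). Kif11, the motor that separates spindle poles, was at -0.74 in 6499c4 and -0.54 in 6419c5 (adjusted p = 2.58e-04 and 0.00135). Dlgap5 was at -0.84 and -0.71 (adjusted p = 1.12e-04 and 3.19e-04), and Kif15 at -0.56 and -0.86 (adjusted p = 0.00723 and 0.00120). The Kif15 call for 6499c4 was lost without the G-1 library of 2838c3 or of 6499c4 (0.0542 and 0.0725). Hmmr was the one gene of the group called in no pair.

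In the condensin and chromosome structure group, 5 of 6 genes were lower in 6499c4 than in 2838c3 and 3 were lower in 6419c5. The shares of all genes tested that were called lower were 28.9% in 6499c4 and 25.3% in 6419c5. A group of 6 genes is small, and its counts were not tested against those shares. Ncapd2, a condensin I subunit, had 72.6 and 75.1 FPKM (G-1 and vehicle) in 6499c4, 55.8 and 53.9 FPKM in 6419c5 and 122 and 123 FPKM in 2838c3. It was lowest in 6419c5, at -1.15 ± 0.07 from 2838c3 (SE; limma, adjusted p = 2.71e-05), and 0.42 ± 0.07 higher in 6499c4 than in 6419c5 (adjusted p = 0.00243). Smc4, an ATPase core subunit shared by both condensins, was at -0.88 in 6499c4 and -0.59 in 6419c5 (adjusted p = 2.65e-04 and 0.00217), whereas its partner Smc2 was called in no pair. Mki67 was at -0.72 in 6499c4 and -0.51 in 6419c5 against 2838c3 (adjusted p = 3.37e-04 and 0.00209). Top2a was at -0.26 in 6499c4 (adjusted p = 0.0330), and that call was lost under 5 of the other settings that kept all libraries, with an adjusted p between 0.0726 and 0.240, and without the G-1 or vehicle library of 2838c3 or the G-1 library of 6499c4 (0.0712, 0.194 and 0.202).

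Of the 5 genes around the anaphase-promoting complex, 3 were lower in 6499c4 than in 2838c3 and 2 were lower in 6419c5, with medians of -0.35 and -0.14. Among all genes tested, 28.9% were lower in 6499c4 and 25.3% in 6419c5, and a group of 5 genes is too small to be set apart from those shares by its counts. Ube2c was lower in 6499c4 than in 2838c3, at -0.67 ± 0.07 (SE; limma, adjusted p = 1.58e-04), and than in 6419c5, at -0.53 ± 0.07 (adjusted p = 6.67e-04). Espl1, the protease separase, was lower than 2838c3 in both, at -0.52 in 6499c4 and -0.54 in 6419c5 (adjusted p = 0.00367 and 0.00375). Cdca3 was at -0.35 and -0.36 (adjusted p = 0.00896 and 0.00836). Its call for 6499c4 was lost under total-read scaling and without the G-1 library of 2838c3 or of 6499c4 (adjusted p = 0.0683, 0.102 and 0.0743). The call for 6419c5 was lost without the G-1 library of 2838c3 or either library of 6419c5 (0.0921, 0.0687 and 0.0637). Cdc20 averaged 93.4 FPKM in 6499c4, 96.4 FPKM in 6419c5 and 92.1 FPKM in 2838c3; no pair of lines was called. All 5 cytokinesis genes were lower in 6499c4 than in 2838c3, with a median of -0.70. Anln, the actin-binding protein anillin, had 66.8 and 73.2 FPKM (G-1 and vehicle) in 6499c4, 115 and 119 FPKM in 6419c5 and 114 and 115 FPKM in 2838c3. It was low in 6499c4 alone, at -0.70 ± 0.07 from 2838c3 (SE; limma, adjusted p = 1.57e-04). Prc1, which bundles microtubules at the midzone, had the same order, at -0.53 from 2838c3 and -0.65 from 6419c5 (adjusted p = 0.00271 and 0.00152). Kif20a and Kif23, kinesins of the midzone, were instead high in 2838c3 alone: Kif20a had 65.9 and 69.3 FPKM (G-1 and vehicle) in 6499c4, 76.5 and 74.4 FPKM in 6419c5 and 131 FPKM in both libraries of 2838c3.

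The regulators of these genes were looked at next, from lists of other genes of the pathway. Foxm1, which activates G2/M promoters, had 36.7 and 37.7 FPKM (G-1 and vehicle) in 6499c4, 38.3 and 42.8 FPKM in 6419c5 and 68.8 and 69.7 FPKM in 2838c3. Mybl2 had 11.2 and 13.8 FPKM in 6499c4, 11.8 and 12.0 FPKM in 6419c5 and 25.6 and 26.7 FPKM in 2838c3. Both were higher in 2838c3 than in either other line, without overlap. Foxm1 was at -0.88 in 6499c4 and -0.76 in 6419c5 against 2838c3 (limma, adjusted p = 8.55e-05 and 2.24e-04), and Mybl2 at -1.02 and -1.08 (adjusted p = 1.85e-04 and 1.89e-04). Of the 13 transcriptional regulators, 5 were lower (38.5%) and 3 higher (23.1%) in 6499c4, and 6 lower (46.2%) and 2 higher (15.4%) in 6419c5, where all genes tested had 28.9% lower and 26.6% higher in 6499c4, and 25.3% lower and 26.2% higher in 6419c5. Cdkn1a, the Cdk inhibitor p21, was also highest in 2838c3. It had 6.16 and 5.23 FPKM in 6499c4, 16.5 and 15.1 FPKM in 6419c5 and 31.6 and 28.0 FPKM in 2838c3. Its difference between 6499c4 and 2838c3 was -2.20 ± 0.09 (SE; limma, adjusted p = 3.51e-06). Other cell cycle inhibitors did not share this order. Against 2838c3, 2 of the 7 tested were higher (28.6%) and 1 lower (14.3%) in 6499c4. In 6419c5, 2 were higher (28.6%) and 3 lower (42.9%). Cdkn2a and Cdkn2b went the opposite way to Cdkn1a, at 1.74 and 1.27 in 6499c4 against 2838c3 (limma, adjusted p = 1.49e-05 and 4.73e-05).

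Against 2838c3, 19 of 23 other spindle and cytokinesis genes were lower in 6499c4 and 0 higher, with a median of -0.60, and 9 were lower in 6419c5 and 1 higher, with a median of -0.20. Among all genes tested, 28.9% were lower and 26.6% higher in 6499c4, and 25.3% lower and 26.2% higher in 6419c5. Arhgap11a, a RhoA regulator, was at -0.83 in 6499c4 (adjusted p = 1.13e-04) and Ckap5, a microtubule polymerase, at -1.16 (adjusted p = 6.76e-05). Of 15 other mitotic entry and kinase genes, 10 were lower and 2 higher in 6499c4, and 9 lower and 1 higher in 6419c5. Of 30 other kinetochore genes, 8 were lower (26.7%) and 2 higher (6.67%) in 6499c4, and 14 lower (46.7%) and 5 higher (16.7%) in 6419c5, so that the lower share in 6499c4 was near the 28.9% of all genes. Of 23 DNA replication and G1/S genes, 14 were lower and 0 higher in 6499c4, and 18 lower and 3 higher in 6419c5. Their medians were -0.47 and -0.52. In 6499c4 against 6419c5, 9 of the 23 were higher (39.1%) and 6 lower (26.1%), where 21.3% and 23.7% of all genes tested were. The median there was 0.15, opposite in sign to the -0.18 of the 46 genes. Against 2838c3, cohesin genes had 7 of 11 lower and 0 higher in 6499c4, and 7 lower and 1 higher (Stag2, at 0.95) in 6419c5. These were not all the same genes: Smc1a was called lower in 6419c5 only and Sgol2a in 6499c4 only. The other 4 condensin subunits had 3 of 4 lower and 0 higher in each line, again not all the same genes. Subunits and partners of the anaphase-promoting complex, 17 genes, had 3 lower and 4 higher in 6499c4 and 4 lower and 3 higher in 6419c5, with medians of 0.07 and 0.01. Their shares lower (17.6% in 6499c4 and 23.5% in 6419c5) and higher (23.5% and 17.6%) were near or below those of all genes tested.

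No gene of these 9 lists was called with G-1, where 0.0279% of all genes tested were (3 of 10748). An absence of calls in lists of this size is near that share. Pkmyt1, which phosphorylates and inhibits Cdk1, had the largest mean difference of the mitotic entry genes, at 0.29 ± 0.07 (SE; limma, adjusted p = 0.300), and was higher in all 3 lines by 0.25, 0.32 and 0.30 in 6499c4, 6419c5 and 2838c3. Cdkn1b, the Cdk inhibitor p27, was at 0.26 ± 0.07 (SE; adjusted p = 0.349), higher in all 3 lines by 0.32, 0.26 and 0.20. Cdkn1a was at 0.16 ± 0.08 (SE; adjusted p = 0.531), Foxm1 at -0.07 ± 0.06 (adjusted p = 0.727) and Mybl2 at -0.12 ± 0.09 (adjusted p = 0.648). The genes with the largest differences of the other lists were Nfyb (-0.17) and Lin54 (0.14) of the regulators, Cdc26 and Anapc10 (both -0.20) of the anaphase-promoting complex, and Pds5a (-0.22) and Sgol1 (-0.15) of cohesin. They were Ncapg2 (-0.13) and Ncaph (-0.07) of condensin, Cenpk (-0.23) and Pmf1 (0.20) of the kinetochore, and Psrc1 (0.22) and Knstrn (0.20) of the spindle. Of the remaining lists they were Bora (-0.11), Pola1 (-0.21), Cdc6 (-0.19) and Cdkn2d (0.39). Adjusted p-values of these genes were 0.369 to 0.749 by limma. Over the 7 cell cycle inhibitors tested, the median G-1 difference was 0.16, and over the 23 DNA replication genes -0.07, against -0.01 over all genes tested.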

How the data were processed

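Total RNA from 3 mouse tumour lines was purified on columns and sequenced, per the labels' protocols, with 1 library per line and treatment. The authors deposited 1 table of FPKM per gene symbol. STAR and DESeq2 are named, with no role, per the submitters' processing notes. The genome build, annotation, strandedness and counting rule are not given in the sources used, so reads shared with near-identical copies (Ccnb1, Ccnb2 and Kif4 have annotated pseudogenes) or with overlapping antisense genes (Smc2) may be counted either way. The 46 genes, their groups and the other lists were chosen with earlier results of these data known.

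Whole reads were recovered from the equal steps of the FPKM values for 100.0% of 15712 genes above 0 (tolerance 0.01 reads). The library scale matched median-of-ratios size factors. Values were analysed as log2(FPKM + 1) for genes averaging 1 FPKM or more, so fold changes of low genes are understated. Limma 3.58.1 (R 4.3.3) fitted line and treatment with a variance trend (2 residual and 5.35 prior degrees of freedom), two-sided, with Benjamini-Hochberg adjustment over 10748 genes and a threshold of 0.05. Line is the replicate block for G-1. It pairs the libraries because both come from the same line, and the deviations of both libraries of a line from the treatment means correlated at 0.882, 0.871 and 0.906 in 6499c4, 6419c5 and 2838c3. Nothing says that libraries came from separate cultures. With 1 library per line and treatment, the residual spread of the fit is how far the G-1 difference varied between lines. The p-values of both comparisons rest on that spread, moderated over all genes, and not on a spread between cultures of a line. Read ratios were taken from recovered reads on the authors' library scale, with exact binomial 95% intervals (scipy 1.17.1) that cover counting error only. A count of 0 allows up to 3 reads, or 0.337 to 0.550 RPM. The fit was tested on simulated data in which the changes were larger than those seen here and alike in every line. That test does not cover small differences or ones that vary between lines.

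Alternatives were pseudocounts of 0.1 and 0.01, no filter and a filter of 5 FPKM, no variance trend, quantile scaling, total-read scaling, limma-voom on recovered reads, GC and length correction (GENCODE M21), no block, and leaving out each line or library. Values were given for Ccnb1, Cdk1, Plk1, Aurka, Cdc20, Top2a and Mki67, for up to 6 genes per direction with 1 sign in all lines or the largest difference from both other lines, for Foxm1, Mybl2 and Cdkn1a, and for up to 2 genes per other list with the largest G-1 difference. Other genes were named after their values were seen. Wapl was not analysed here and Cdkn1c was below the filter.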

Additional observations from a re-analysis of the deposited data

Results flagged for a closer look

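G-1 and vehicle differed in opposite directions in separate lines, with counting intervals of the read ratio on opposite sides of 1, for 12 of the 46 genes. The spread is the highest minus the lowest of the 3 line values of G-1 minus vehicle, on the log2(FPKM + 1) scale. It was 0.46 for Cdk1, 0.47 for Plk1, 0.47 for Aurka and 0.42 for Mad2l1, which were lower with G-1 in 6499c4 and higher in 2838c3. Prc1 had a spread of 0.37 between the same lines. For Bub1 it was 0.34, for Spc25 0.62, for Hmmr 0.49, for Smc4 0.38, for Top2a 0.27 and for Ect2 0.44, each with the lowest value in 6499c4 and the highest in 6419c5. These values are not corrected for GC content and length. After that correction Bub1 was at -0.06 in 6499c4, 0.16 in 6419c5 and -0.09 in 2838c3, so that its lowest value was in 2838c3. Ndc80, at 0.38, was lower with G-1 in 6499c4 and higher in both other lines. With 1 library per line and treatment the difference between lines was not tested. The share of all genes tested with such intervals was 5.64%, and over genes with at least 799 mean reads it was 10 of 34 members against 10.9%.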

How the results depend on the processing

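G-1 against vehicle gave 0 called genes of the 46 under every alternative run, and the median of -0.04 was between -0.05 and -0.00 where all libraries were kept and between -0.07 and 0.02 without 1 line. Few genes were called at all. With all libraries kept, 0 to 6 of all genes tested were called, apart from 165 of 10748 by limma-voom. The count of 0 is thus near the share of all genes. Line pairs the libraries, and with no replicate block the median was -0.04, with 0 called. For 6419c5 against 2838c3, the number higher (2) was 1 with a pseudocount of 0.01 FPKM, no filter, no variance trend, quantile scaling or the GC and length correction, and 0 to 2 without single libraries. The number lower (23) was 15 to 24 without single libraries, lowest without the vehicle library of 6419c5. For 6499c4 against 2838c3, the number higher (1) was 2 under quantile and total-read scaling and 0 to 1 without single libraries, and the median (-0.52) was -0.39 under total-read scaling and -0.57 to -0.41 without single libraries. For 6499c4 against 6419c5, the number higher (2) was 4 under quantile scaling and 5 under total-read scaling and under the GC and length correction, with medians of -0.10, -0.07 and -0.09. The number lower there (16) was 8 without the G-1 library of 6419c5, 9 without the G-1 library of 6499c4, and at most 16. Signs turned for differences not called at the reported settings, of which Cdc20 in 6499c4 against 2838c3 passed the threshold once turned: with the GC and length correction, Top2a with G-1 was 0.01, Cdc20 was -0.11 in 6419c5 and -0.20 in 6499c4 against 2838c3 (limma, adjusted p = 0.194 and 0.0330), Pttg1 was -0.11 and Cdk1 0.01 in 6499c4 against 2838c3. Cdk1 there was 0.04 under quantile and 0.09 under total-read scaling. Aurka in 6419c5 against 2838c3 was 0.01 under total-read scaling. Cdc20 in 6499c4 against 6419c5 was 0.01 under quantile and 0.06 under total-read scaling, and Cdc25c there was -0.00 by limma-voom. Without single lines, the G-1 difference ranged from -0.14 to 0.10 for Cdk1, -0.14 to 0.09 for Aurka and -0.18 to 0.05 for Plk1. Without single libraries, 6419c5 against 2838c3 ranged from -0.16 to 0.12 for Aurka, -0.28 to 0.13 for Plk1, -0.01 to 0.24 for Prc1, -0.16 to 0.09 for Top2a and -0.12 to 0.25 for Hmmr, and 6499c4 against 2838c3 from -0.26 to 0.17 for Cdk1 and -0.16 to 0.48 for Pttg1. For 6499c4 against 6419c5 the ranges were -0.04 to 0.05 for Cdc25c, -0.03 to 0.18 for Birc5, -0.51 to 0.08 for Pttg1 and -0.03 to 0.32 for Mad2l1 (adjusted p = 0.0474 for the 0.32, without the G-1 library of 6499c4). The cause of these changes was not tested. For every pair of lines, leaving out any 1 library of that pair also lowered the number of calls over all genes tested.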
